A study of Homo sapiens with 6 samples.

Results

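The transcripts of 9 genes that act directly beneath the T cell receptor were followed in Jurkat cells, an established human line from a T cell acute lymphoblastic leukaemia. They encode the kinases LCK, FYN, ZAP70, TXK and CSK, the adaptors LAT, LCP2 and THEMIS, and the phosphatase PTPN22. The genes were chosen by name for their role in this pathway, and all 9 were found among the 39012 rows of the deposited table. In 3 libraries the cells stably overexpressed SCML4, which belongs to the Scm-like group of Polycomb proteins. In 3 others they carried an empty vector (EV). All cells of both groups received 100 ng/ml PMA plus 1 µM ionomycin for 6 h, and no unstimulated cells are compared here. The sources used here do not give the vector's promoter or say whether each line is a clone or a pool. The labels also call the line ouabain-induced, with no further detail. Nor do they tie the replicates to separate cultures, and a p-value here reflects the spread among libraries alone, which may be technical.

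When the T cell receptor is engaged, the Src family kinases LCK and FYN phosphorylate the CD3 chains, and ZAP70 docks on them and is activated in turn. ZAP70 then phosphorylates LAT and LCP2 (also called SLP-76), which together hold the complex that activates phospholipase C gamma and so produces the calcium and diacylglycerol signals. CSK phosphorylates the inhibitory C-terminal tyrosine of LCK and FYN, PTPN22 removes the activating phosphates, and THEMIS is an adaptor known from mouse thymocyte selection. PMA and ionomycin replace the diacylglycerol and calcium signals and so act downstream of these proteins. Derivatives of Jurkat that lack LCK, ZAP70, LAT or LCP2 were used to work out this order. The data are transcript levels, and neither phosphorylation nor kinase activity was measured.

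Levels are given as CPM, reads of a gene per 1000000 reads of its library, from reads recovered from the steps of the deposited FPKM values. Libraries held 8953671 to 10336597 reads. SCML4 itself had 570, 657 and 506 reads in the SCML4 libraries, against 7, 2 and 1 reads in the EV libraries, as the labels state. EV replicate 1 stood apart before any gene of the pathway was considered. Its score on the first principal component (36.3% of the variance) was 30.4, and the other 5 libraries scored between -8.2 and -2.27. Across 14202 genes its deviation from the 6-library mean had a Spearman coefficient of -0.5 with GC content, genes not being independent replicates, and the other libraries had 0.04 to 0.29. Results are therefore also given without it. The T cell label was borne out by CD3E at 700 ± 11.8 CPM in SCML4 libraries and 626 ± 36.9 in EV libraries (SD, n = 3 each), and by CD3D, CD3G, CD247 and TRAC at means of 145 to 291 CPM. Markers of other cells were low apart from CD79A, a B cell antigen receptor chain, at 31.5 ± 1.18 CPM in SCML4 and 26.0 ± 6.43 in EV. The B cell markers PAX5 and CD22 were at 0 in every library, as were the myeloid markers LYZ, SPI1 and FCGR1A, the NK cell markers NCR1 and FCGR3A and the erythroid marker HBB. The summed level of 8 myeloid markers was 0.441 to 0.871 CPM in SCML4 and 0.669 to 0.934 in EV.

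Sequence before a transcription start is shown for 4 of the genes, which mark the extremes of what follows. LCK is, with ZAP70, among the most abundant per length, and FYN is its close relative with a far lower level. TXK was nearly absent, and THEMIS had the largest difference between the groups. Each sequence is the 250 bases before a transcription start given by RefSeq on GRCh38.p14, which is not the build of the authors' processing. Capitals mark the ETS core GGAA and the RUNX core TGTGGT on either strand, so TTCC and ACCACA are capitalised too, and no base belonged to both. They lie at chr1:32251015-32251264 on the + strand, chr6:111873453-111873702 on the - strand, chr4:48134251-48134500 on the - strand and chr6:127855189-127855438 on the - strand.
LCK: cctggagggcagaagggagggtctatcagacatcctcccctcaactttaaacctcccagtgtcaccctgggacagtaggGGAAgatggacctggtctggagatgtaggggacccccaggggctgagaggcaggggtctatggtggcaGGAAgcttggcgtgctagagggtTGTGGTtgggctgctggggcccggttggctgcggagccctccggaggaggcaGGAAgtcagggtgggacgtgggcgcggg
FYN: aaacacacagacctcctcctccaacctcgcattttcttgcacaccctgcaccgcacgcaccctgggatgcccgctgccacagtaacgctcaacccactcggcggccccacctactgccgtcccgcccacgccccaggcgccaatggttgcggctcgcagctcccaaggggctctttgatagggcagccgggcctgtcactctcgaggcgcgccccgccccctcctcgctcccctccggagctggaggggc
TXK: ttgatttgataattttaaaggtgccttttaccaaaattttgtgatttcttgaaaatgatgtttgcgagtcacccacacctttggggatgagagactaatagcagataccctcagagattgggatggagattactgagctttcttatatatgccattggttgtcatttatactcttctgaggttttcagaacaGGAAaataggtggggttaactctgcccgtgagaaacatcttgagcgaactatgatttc
THEMIS: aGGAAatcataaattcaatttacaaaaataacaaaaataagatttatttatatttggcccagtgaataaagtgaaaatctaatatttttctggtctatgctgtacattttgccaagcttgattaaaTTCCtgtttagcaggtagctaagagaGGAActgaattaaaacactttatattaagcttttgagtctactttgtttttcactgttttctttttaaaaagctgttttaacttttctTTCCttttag

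The LCK window held 3 copies of GGAA, 1 of TGTGGT and 7 CG dinucleotides at a GC content of 64.4%. The FYN window held 20 CG dinucleotides at 68.8% GC and none of the marked cores. TXK had 1 GGAA, 1 TATAAA and 3 CG dinucleotides at 38.4% GC. THEMIS had 4 GGAA, 2 TATAAA and no CG dinucleotide, at 26.8% GC. Of 35116 promoters of this length, 92.7% held GGAA, 11.0% TGTGGT, 10.7% TATAAA and 93.9% a CG dinucleotide, each on either strand. The E-box CANNTG, present in 61.8%, was found in none of the 4 windows. LCK is known to be transcribed from a proximal and a distal promoter. The LCK window covers a single RefSeq start, so at most 1 of these promoters is shown. The windows of FYN, TXK and THEMIS also cover a single start each. That of THEMIS ends in a run of T and C followed by AG, as introns do, and may not be its main promoter. Which starts these cells use was not tested. A match of letters is a description and does not show that a factor binds there.

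The 9 transcripts spanned a wide range of levels. LCK and ZAP70 were the most abundant, LAT was the scarcest of the transcripts clearly expressed, and TXK was near the limit of detection. Levels of different genes were compared per kilobase of exon, with exon lengths from GENCODE 29, because a longer transcript gives more reads. On this scale, over all 6 libraries, LCK averaged 127 CPM per kilobase (118.9 to 131) and ZAP70 averaged 121 (117 to 124). The libraries of these neighbours overlapped, so their order is not resolved. CSK followed at 50.9 (36.7 to 56.6) and THEMIS at 42.9 (37.5 to 48.9), again overlapping. FYN averaged 14.0 CPM per kilobase and LCP2 12.9, which overlapped as well, and PTPN22 averaged 10.0 with every library below those of LCP2. LAT averaged 3.49 CPM per kilobase (2.84 to 4.39), below every library of PTPN22. In GENCODE 29 a same-strand transcript covers 47.7% of its exonic bases. How reads there were assigned is not stated in these sources, so the level of LAT is uncertain. TXK averaged 0.274 (0.0953 to 0.386). LCK and ZAP70 made up 33.2% and 31.6% of the summed level of the 9 genes. The values per kilobase, and the ratios between genes drawn from them, depend on the length chosen. With the longest transcript in place of all exons the 9 genes kept their ranks, but their levels came out higher, and unequally so. In SCML4 libraries LCK was then at 202 CPM per kilobase, against 131 by all exons, and ZAP70 at 189, against 121. CSK was at 87.3, against 52.9, and FYN at 29.4, against 14.4. LCP2 was at 20.4, against 13.2, and LAT at 6.49, against 3.58.

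**Figure D1:**
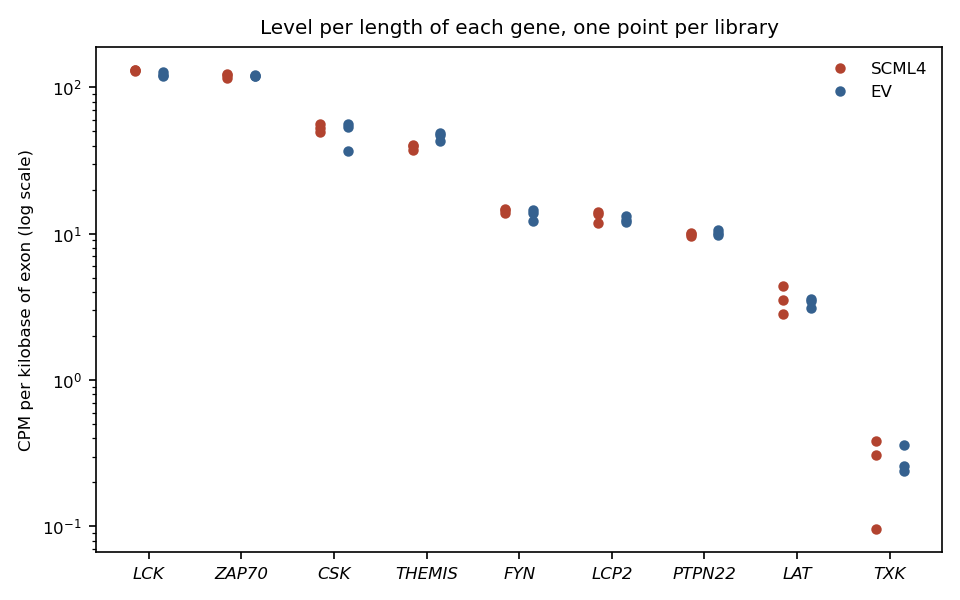
Level per length of each of the 9 genes, in CPM per kilobase of exon on a log axis, with 1 point per library (SCML4 libraries left, EV libraries right of each pair). LCK and ZAP70 lie highest, near 127 and 121, and TXK lowest, near 0.274, with the libraries of both groups close together in each gene.

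Among the Src family kinases, LCK was slightly higher in SCML4 libraries and FYN overlapped between the groups. LCK, the main kinase that starts receptor signalling, had 434, 437 and 439 CPM in the SCML4 libraries, against 397, 425 and 402 CPM in the EV libraries. All 3 SCML4 values lay above all 3 EV values, by a narrow margin. In bulk libraries such as these, a change in the share of cells with a transcript and a change of its amount per cell cannot be told apart. On the log2 scale this came to 0.10 ± 0.07 (SE; 95% interval -0.05 to 0.25), and the limma-trend adjusted p was 0.877. The spread of LCK among SCML4 libraries, an SD of 2.45 CPM, was below the 6.81 CPM that counting alone would give, while EV libraries had an SD of 15.1 CPM against 6.59. Without EV replicate 1 the LCK difference was 0.08, and after correction of each library for GC content 0.04. FYN, which shares substrates with LCK, had 103, 108 and 109 CPM in SCML4, against 90.5, 102 and 108 CPM in EV. Its groups overlapped, and the lowest value was that of EV replicate 1. The log2 difference was 0.09 ± 0.09 (SE; adjusted p = 0.905 in limma-trend), and 0.02 without EV replicate 1.

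The balance between the pair was also similar in both groups. Per kilobase, LCK exceeded FYN 9.36, 9.01 and 8.90 times in the SCML4 libraries and 9.73, 9.27 and 8.25 times in the EV libraries. The SCML4 values lay within the range of the EV values. These ratios have no test of their own.

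ZAP70, the kinase that binds the phosphorylated CD3 chains, gave the most reads of the 9 genes and barely differed between the groups. It had 625, 595 and 632 CPM in SCML4 and 624, 609 and 614 CPM in EV. The EV values lay within the range of the SCML4 values. The log2 difference was 0.0037 with a 95% interval of -0.15 to 0.15 (adjusted p = 0.996 in limma-trend). It was 0.01 when EV replicate 1 was left out. Corrected for GC content it was -0.08, with an interval of -0.24 to 0.08. Its relative SYK, which can take the place of ZAP70, stood at 108 ± 5.78 CPM in SCML4 and 97.2 ± 5.91 in EV (SD, n = 3 each), a log2 difference of 0.15 (adjusted p = 0.864 in limma-trend).

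TXK, a Tec family kinase of resting T cells, was nearly absent. It had 3, 11 and 12 reads in the SCML4 libraries, against 12, 8 and 8 reads in the EV libraries. The groups overlapped, and the SCML4 libraries held both the lowest and the joint highest count. The limit that a count of 0 allows, 3 reads, was between 0.29 and 0.335 CPM, and the lowest TXK value, 0.331 CPM, equals that limit for its library. Its mean fell below the 1 CPM needed to enter the test. In the fit with no filter the difference was -0.09 with a 95% interval of -0.59 to 0.41, too wide to show or deny a moderate change at this depth. The related kinase TEC stood at 2.63 ± 0.355 and 2.53 ± 0.826 CPM in SCML4 and EV, and BMX was at 0 in every library.

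For CSK, the kinase that holds LCK and FYN in the inactive state, the direction of the difference rested on 1 library. It had 258, 226 and 241 CPM in SCML4, against 168, 257 and 245 CPM in EV. EV replicate 1 lay far below the other 5 libraries, and the remaining EV values lay within the range of the SCML4 values. With all libraries the difference was 0.14 ± 0.13 (SE; adjusted p = 0.906 in limma-trend). Without EV replicate 1 it was -0.06 ± 0.07 (SE), the opposite direction. CSK has the highest GC content of the 9 genes, 63.6% in its longest transcript, and after correction for GC content the difference was 0.04. The ratio of LCK to CSK per kilobase was 2.30, 2.65 and 2.49 in SCML4 libraries and 3.24, 2.26 and 2.25 in EV libraries, so 1 EV library stood apart there too.

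**Figure D2:**
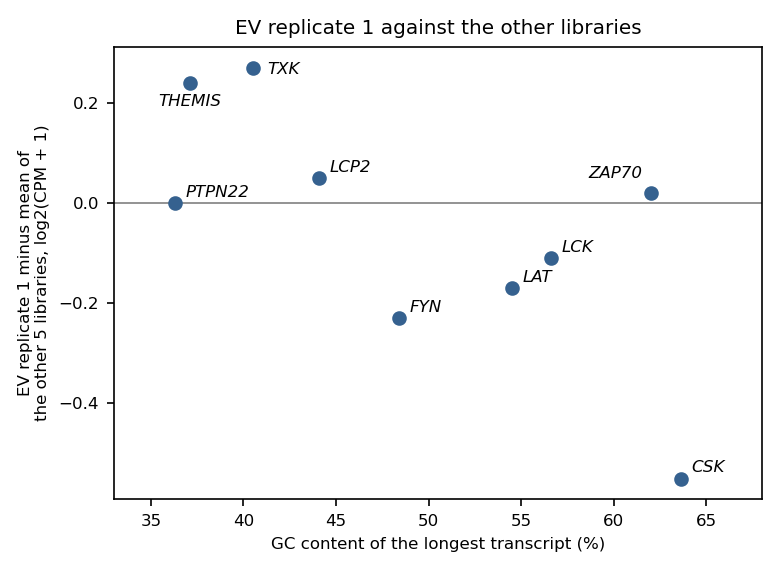
EV replicate 1 minus the mean of the other 5 libraries, in log2(CPM + 1), against the GC content of the longest transcript in percent, with 1 point for each of the 9 genes. CSK lies lowest at -0.55, and TXK and THEMIS highest at 0.27 and 0.24.

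EV replicate 1 held the lowest value of the 6 libraries for LCK, FYN and CSK and the highest for THEMIS. For CSK it lay 0.55 below the mean of the other 5 libraries in log2(CPM + 1), and for FYN 0.23 below. For THEMIS it lay 0.24 above. The GC content was 56.6% in LCK, 48.4% in FYN and 63.6% in CSK, and 37.1% in THEMIS. ZAP70, at 62.0% GC, deviated by only 0.02 and PTPN22, at 36.3%, by less than 0.01. The part of GC content in these deviations was not tested beyond the corrected fit.

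PTPN22, the phosphatase that works with CSK to restrain LCK and ZAP70, had 45.0, 43.7 and 45.2 CPM in SCML4 and 45.2, 44.1 and 48.0 CPM in EV. The groups overlapped, and EV replicate 3 lay highest. The difference was -0.03 with a 95% interval of -0.23 to 0.17 (adjusted p = 0.968 in limma-trend), -0.04 when EV replicate 1 was left out and 0.03 when corrected for GC content. The SD among SCML4 libraries, 0.813 CPM, was smaller than the 2.18 CPM expected from counting, and that among EV libraries, 2.06 CPM, was close to the 2.20 CPM expected.

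The adaptors LAT and LCP2 did not separate the groups. LAT, the membrane adaptor on which the signalling complex assembles, had 12.6, 15.6 and 19.4 CPM in SCML4, against 13.8, 15.9 and 15.4 CPM in EV. The SCML4 libraries held both the lowest and the highest value. They rested on 114, 161 and 174 reads, and their SD of 3.44 CPM exceeded the 1.30 CPM expected from counting. The difference was 0.05 with a 95% interval of -0.29 to 0.40 (adjusted p = 0.969 in limma-trend), the widest interval among the 8 of the 9 genes that were tested, and it was -0.0032 without EV replicate 1. In GENCODE 29 a processed transcript on the same strand covers 47.7% of the exonic bases of LAT. How reads in such overlaps were assigned is not stated in these sources. LCP2, the cytosolic adaptor that joins LAT to VAV1, had 85.9, 102 and 98.6 CPM in SCML4, against 96.0, 90.4 and 86.7 CPM in EV. Its groups overlapped, and the difference was 0.07 with a 95% interval of -0.13 to 0.26 (adjusted p = 0.929 in limma-trend), or 0.11 without EV replicate 1. LCP2 exceeded LAT per kilobase 4.18, 4.01 and 3.10 times in SCML4 and 4.25, 3.47 and 3.44 times in EV.

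THEMIS was the 1 gene of the set that stood lower in SCML4 libraries with no overlap. THEMIS binds the phosphatases PTPN6 and PTPN11 and the adaptor GRB2. It had 171, 175 and 162 CPM in the SCML4 libraries, against 211, 203 and 187 CPM in the EV libraries. Every SCML4 value lay below every EV value, and EV replicate 1 was the highest. The group means were 169 ± 6.95 CPM in SCML4 and 200.0 ± 12.2 CPM in EV (SD, n = 3 each), a ratio of 0.847. This is a log2 difference of -0.24 ± 0.08 (SE; 95% interval -0.40 to -0.07). Its unadjusted p was 0.00833 and its adjusted p 0.864 in limma-trend, so it did not pass. By unadjusted p it ranked 102 of 14250 genes, 239 of 14250 without EV replicate 1 and 279 of 14202 after correction for GC content. Without EV replicate 1 the difference was -0.20 (unadjusted p = 0.00915, adjusted p = 0.545 in limma-trend). After correction for GC content, which is low in THEMIS, it was -0.17 (unadjusted p = 0.0179, adjusted p = 0.854 in limma-trend).

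**Figure D3:**
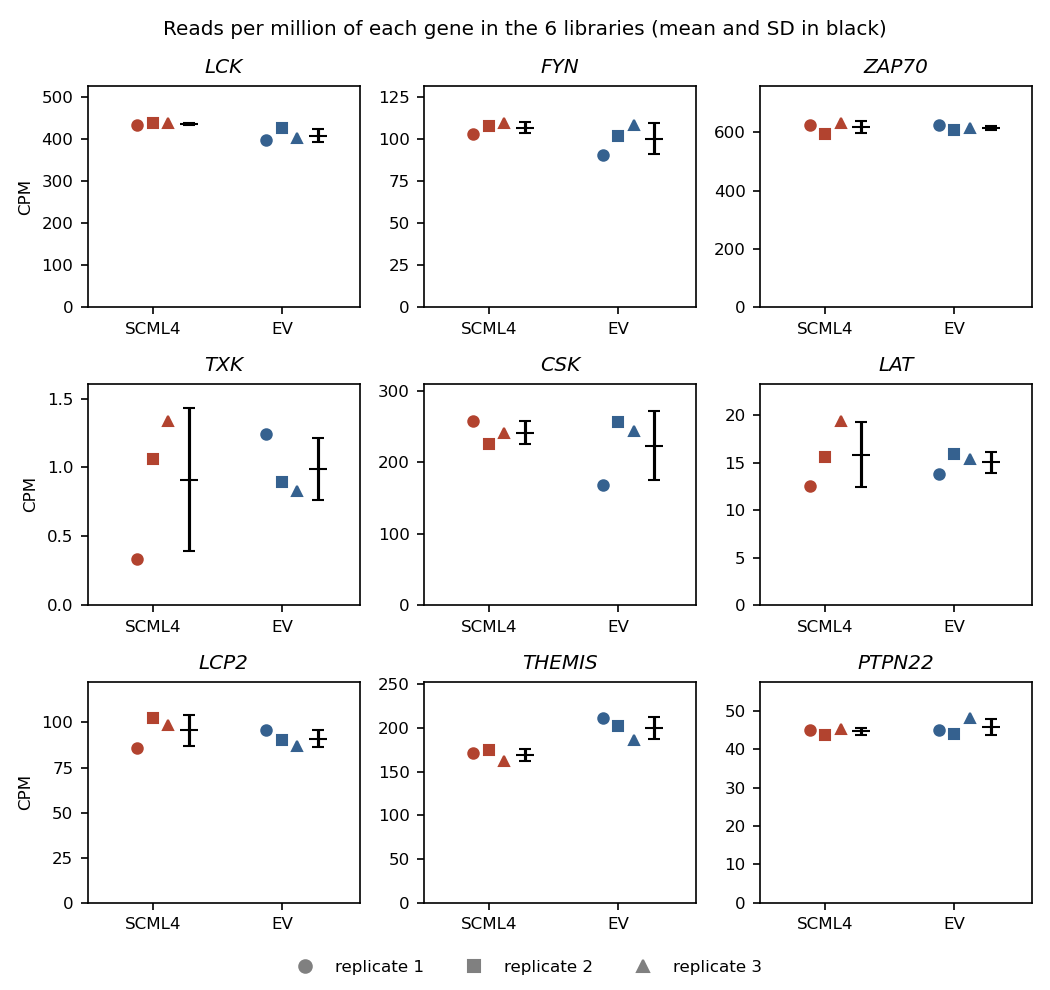
Level in CPM of the 9 genes in each library, SCML4 left and EV right in each panel, with axes that start at 0, marker shapes for the replicate and the mean with its SD in black. LCK is slightly higher and THEMIS lower in all 3 SCML4 libraries, and EV replicate 1 stands apart in CSK at 168 CPM.

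The genes whose pattern over the 6 libraries was most like that of THEMIS were KHDC4, PPP4R3B and SNX27, with Pearson coefficients of 0.997, 0.985 and 0.981 among 8569 genes of at least 20 CPM. KHDC4 had 160, 161 and 152 CPM in SCML4 and 188, 182 and 169 CPM in EV. These 3 genes were picked as the highest of the 8569, over only 6 libraries, and 35 genes had a coefficient above 0.95. The likeness is a description and was not tested.

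As a set, 0 of the 8 genes tested passed an adjusted p of 0.05 in limma-trend, where 1 of 14250 genes did, SCML4 itself, or 0.00702% of all. THEMIS was the 1 gene of the 8 with an unadjusted p under 0.05, against 5.27% of all genes. By limma-voom on the recovered reads 0 of the 8 passed as well. The groups did not overlap in 2 of the 8 genes, LCK (higher) and THEMIS (lower), where 11.6% of all genes did not overlap, 6.27% with SCML4 higher and 5.38% with SCML4 lower. Of the 8 differences 6 were positive, against 52.3% of all genes, and the median was 0.06 against 0.01 over all genes. Without EV replicate 1 the 8 differences divided into 4 positive and 4 negative, with a median of 0.005 against 0.0059 over all genes, and 0 of the 8 passed while 14 genes of the whole table did. TXK is the 1 gene left out of these counts. An exact permutation test of 3 against 3 libraries cannot give a two-sided p below 0.1 for any single gene.

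**Figure D4:**
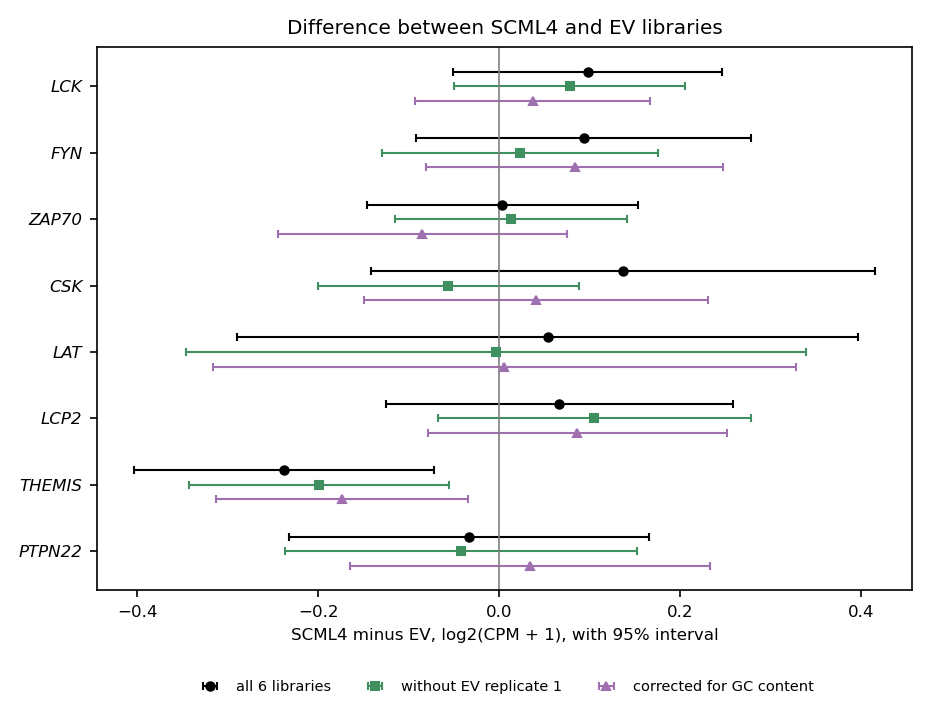
Difference of each gene between SCML4 and EV in log2(CPM + 1), with its 95% interval, from all 6 libraries (circles), without EV replicate 1 (squares) and after correction for GC content (triangles). The intervals of THEMIS lie below 0 in the 3 fits, at -0.24, -0.20 and -0.17, and those of the other 7 genes include 0.

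Around these genes, the partners of the pathway likewise gave 0 calls. The 14 receptor, CD3 and coreceptor genes tested had a median log2 difference of 0.10, positive in 9 and negative in 5. That median was -0.0065, with 7 of each sign, when EV replicate 1 was left out. The groups did not overlap in 5 of the 14, 4 higher and 1 lower in SCML4, against 11.6% of all genes. CD3E had a difference of 0.16, CD3D of 0.15 and TRAT1, an adaptor that binds the receptor complex, of -0.25 (adjusted p = 0.864 for each in limma-trend). TRAT1 stood at 51.7 ± 3.76 CPM in SCML4 and 61.6 ± 3.88 in EV. In the complex around LAT and LCP2 the 20 genes had a median of 0.07, positive in 15 and negative in 5, and without EV replicate 1 it was 0.06. The groups did not overlap in 7 of the 20, 6 higher and 1 lower in SCML4, against 11.6% of all genes. GAB2, a docking protein, stood at 18.6 ± 2.17 CPM in SCML4 and 12.0 ± 1.19 in EV, with no overlap. Its log2 difference was 0.59 ± 0.14 (SE; unadjusted p = 0.00111, adjusted p = 0.864 in limma-trend), and 0.64 ± 0.15 without EV replicate 1 (adjusted p = 0.18 in limma-trend). VAV1, a guanine nucleotide exchange factor, had a difference of 0.31 and WAS, which drives actin assembly, of 0.29, or 0.22 and 0.18 without EV replicate 1. PLCG1, the phospholipase at the end of this step, stood at 197 ± 2.46 CPM in SCML4 and 195 ± 5.00 in EV.

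Negative regulators of proximal signalling numbered 21 tested, 15 with positive and 6 with negative differences, a median of 0.10 and 0 calls. The median without EV replicate 1 was 0.05. The groups did not overlap in 3 of the 21, all higher in SCML4. CD5, among these 3, and CD6 are also in the list of receptor and coreceptor genes, so CD5 is counted in both lists. Over all genes 11.6% did not overlap, 6.27% with SCML4 higher. DOK1, an adaptor that recruits a Ras inhibitor, stood at 29.4 ± 0.13 CPM in SCML4 and 24.2 ± 1.56 in EV, with a difference of 0.27. SLA, which promotes the turnover of the receptor complex, had a difference of 0.17 and the phosphatase PTPN6 of 0.25, which was 0.10 without EV replicate 1. PAG1, the membrane protein that recruits CSK, stood at 160 ± 12.9 CPM in SCML4 and 169 ± 12.6 in EV. Of 5 other Src and Syk family kinases tested, 3 had positive differences and 0 passed. In 2 of the 5 the groups did not overlap, 1 in each direction, against 11.6% of all genes. BLK, a Src family kinase known from B cells, stood at 18.5 ± 1.15 CPM in SCML4 and 13.5 ± 2.92 in EV, a difference of 0.44 that was 0.26 without EV replicate 1, and YES1 at 36.0 ± 0.495 and 42.3 ± 3.46 CPM in SCML4 and EV. LYN had 0 to 2 reads in SCML4 libraries and 0 in the EV libraries. Of 8 genes for the folding and transport of LCK, 5 had positive differences and 0 passed. In 0 of the 8 the groups did not overlap, against 11.6% of all genes. HSP90AA1, a chaperone on which LCK depends, stood at 1396 ± 203 CPM in SCML4 and 1664 ± 112 in EV, with a difference of -0.26, and its partner CDC37 had one of 0.20, or 0.07 without EV replicate 1. The 9 mitochondrially encoded genes tested had 2 positive and 7 negative differences and 0 calls, with the smallest unadjusted p in MT-ND4 at -0.15, MT-ATP6 at -0.15 and MT-ND2 at -0.12. All 9 were negative without EV replicate 1. The groups did not overlap in MT-ND4, MT-CO1 and MT-CYB, each lower in SCML4. Over all genes 11.6% did not overlap, 5.38% with SCML4 lower. The unadjusted p of these 3 genes was 0.154, 0.221 and 0.226 in limma-trend. Mitochondrially encoded genes took 5.57%, 5.70% and 5.77% of the reads in the SCML4 libraries, against 5.82%, 6.21% and 6.01% in the EV libraries, with no overlap. The part of this share in the other differences was not tested. Among marker genes of other cells, KLRD1, known from NK cells, had 2 to 18 reads in SCML4 and 13 to 29 in EV, a difference of -0.80, and the epithelial keratin gene KRT8 stood at 1.28 ± 0.342 CPM in SCML4 and 0.924 ± 0.350 in EV. Both had overlapping groups and neither passed.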

How the data were processed

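RNA-seq of 6 Jurkat libraries (3 SCML4, 3 EV) was analysed, grouped by the sample titles. The deposited values are FPKM, reads scaled by gene length and library total, per the file headers. FastQC, STAR, SAMtools and hg19 are named without versions, per the submitters' processing notes; which counter and gene lengths were used is not given in the sources used here. Libraries were made from total RNA with a SMARTer mRNA-seq kit, per the labels' protocols.

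Within a library, each FPKM is a whole number of reads times a step set by the gene. Reads and library totals were recovered from these steps in Python 3.11.15. Reads were taken as the smallest whole numbers that fit, with a tolerance of 0.002 of a read. Such numbers were found for 100.0% of the 23897 genes above 0. In 718 genes a common divisor was restored from the requirement that lengths be whole. A divisor that also leaves the length whole would go unseen. The lengths implied by the FPKM do not match the genes (104 bases for LCK, against 3339 in GENCODE 29 on GRCh38), with a Spearman coefficient of -0.005 over 14112 genes. FPKM levels were therefore not compared between genes, and the fit uses CPM. Lengths, GC content and overlaps come from GENCODE 29.

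The comparison was limma-trend (limma 3.58.1, R 4.3.3) on log2(CPM + 1), SCML4 minus EV, for 14250 genes with a mean of at least 1 CPM, with Benjamini-Hochberg adjustment over all of them. The pseudocount slightly understates changes of low genes. Scripts were tested on simulated data. Counting errors and floors (3 reads) cover counting error only. Alternatives were other pseudocounts, filters and scalings, log2(FPKM + 1), limma-voom, library weights, no intensity trend, a replicate block, GC correction (lowess, span 0.3) and leaving out each library. Libraries were not paired by replicate number.

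The members, the lists and the design were chosen with earlier results of these data known. Named genes were the 9 members, SCML4, the 3 genes of smallest unadjusted p in each list (1 for marker lists), and the 3 genes most like the member of largest difference. Partners such as CD3G, CD5, CD6, PLCG1, PAG1, LYN, MT-CO1 and MT-CYB and markers at 0 were named after their values were seen. Some genes of the lists are not reported here.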

Additional observations from a re-analysis of the deposited data

How the results depend on the processing

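The direction of LCK, FYN, LCP2 and THEMIS was the same in all 18 alternatives, and no adjusted p of any of the 8 genes tested passed 0.05 in them. The lowest adjusted p was 0.279, for THEMIS with library weights in limma-trend, and those of THEMIS ranged from there to 0.99. Its difference ranged from -0.29 to -0.17. The small differences of other genes changed sign. With library weights ZAP70 had -0.0091, CSK -0.0401 and LAT -0.0045; with quantile normalization ZAP70 had -0.0248; with correction for GC content ZAP70 had -0.0847 and PTPN22 0.0342. Leaving out each library in turn gave -0.0136 to 0.0298 for ZAP70, -0.06 to 0.25 for CSK, -0.10 to 0.20 for LAT and -0.0596 to 0.0017 for PTPN22. The differences of CSK and LAT were negative without EV replicate 1, at -0.06 and -0.0032, and that of LAT was -0.10 without SCML4 replicate 3. The cause was not tested. List medians and list genes given without EV replicate 1 were chosen after seeing the data.

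SCML4 had a difference of 5.55 and, in log2(FPKM + 1), 1.88 (limma-trend adjusted p = 0.0619); the implied length of its gene lowers these FPKM. The number of genes called, 1 with all libraries, was 0 in log2(FPKM + 1), 2 with median-of-ratios scaling, 3 with quantile normalization, 3 with correction for GC content, 20 with library weights and 1 to 14 when a library was left out, 14 without EV replicate 1. In log2(FPKM + 1), where 0 genes were called by limma-trend, 781 had an unadjusted p under 0.05, and limma-voom called 1. None of these calls was a member. With the replicate number as a block 3 genes were called and THEMIS had an adjusted p of 0.983; equal numbers did not deviate together (correlations of -0.056, -0.112 and -0.045). TXK, with 3 to 12 reads per library, is limited by depth.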
